A study of Homo sapiens with 12 samples.

Results

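GPR158, STK39 and ABHD2 are 3 genes whose transcripts stood among the largest rises when vehicle-treated LNCaP cells were kept in full serum instead of charcoal-stripped serum. They were chosen by that rise, with earlier results of all 12 arrays known, 1 transcript cluster (the probe group of the array that reads a gene) per gene, out of 14812 genes with a symbol, and all 3 were among the 11105 genes whose signal allowed a test. LNCaP is an androgen-responsive line from human prostate cancer, and the cells carried the control plasmid MSCV-LMP. There were 6 groups of 2 arrays: ethanol vehicle, 1 nM cabazitaxel or 1 nM docetaxel for 16 h, each in serum treated with charcoal and dextran, which removes steroid hormones, or in full serum. The labels do not say that the 2 arrays of a group came from separate cultures, so the spread behind the p-values is that between these arrays and may be technical. The deposited values are linear intensities, and levels below are their log2.

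GPR158 encodes a class C G protein-coupled receptor that binds glycine and holds the RGS7-Gbeta5 complex at the membrane, best known from neurons. STK39 encodes SPAK, a Ste20-type kinase that WNK kinases switch on and that phosphorylates cation-chloride cotransporters, by which cells adjust their volume and salt content. ABHD2 encodes a serine hydrolase of the alpha/beta hydrolase fold that splits monoacylglycerols and, in sperm, responds to progesterone. Transcripts of all of them have been described as androgen-induced in prostate cancer cells. The androgen receptor binds DNA as a dimer at paired half-sites, mostly in enhancers far from the genes it controls.

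On GRCh38.p14, GPR158 lies on chromosome 10 from 25175001 to 25602229, STK39 on chromosome 2 from 167954022 to 168247595, and ABHD2 on chromosome 15 from 89040998 to 89202355. The 250 bases before each annotated start are shown for these genes, which were picked for a rise in full serum. RefSeq gives ABHD2 2 starts. Capitals mark the half-site of the androgen response element, AGAACA, on either strand. The sequences are from RefSeq, build GRCh38.p14, 5′ to 3′ on the strand of the gene, covering chr10:25174751-25175000 on the plus strand, chr2:168247596-168247845 on the minus strand, and chr15:89040748-89040997 and chr15:89088206-89088455 on the plus strand.
GPR158: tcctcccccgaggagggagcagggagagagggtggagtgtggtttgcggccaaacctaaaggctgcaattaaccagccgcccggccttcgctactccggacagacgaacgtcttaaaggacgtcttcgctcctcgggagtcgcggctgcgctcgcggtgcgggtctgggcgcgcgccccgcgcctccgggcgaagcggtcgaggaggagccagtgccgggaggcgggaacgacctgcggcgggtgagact
STK39: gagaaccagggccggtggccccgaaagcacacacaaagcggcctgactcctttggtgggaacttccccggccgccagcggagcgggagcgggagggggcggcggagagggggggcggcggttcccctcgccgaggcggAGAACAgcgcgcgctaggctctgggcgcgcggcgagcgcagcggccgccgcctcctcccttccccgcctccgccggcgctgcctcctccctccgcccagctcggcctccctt
ABHD2 first start: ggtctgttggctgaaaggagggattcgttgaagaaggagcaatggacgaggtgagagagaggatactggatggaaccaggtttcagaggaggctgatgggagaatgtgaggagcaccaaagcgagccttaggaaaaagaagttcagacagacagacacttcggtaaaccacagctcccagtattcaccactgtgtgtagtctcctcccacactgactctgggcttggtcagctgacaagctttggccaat
ABHD2 second start: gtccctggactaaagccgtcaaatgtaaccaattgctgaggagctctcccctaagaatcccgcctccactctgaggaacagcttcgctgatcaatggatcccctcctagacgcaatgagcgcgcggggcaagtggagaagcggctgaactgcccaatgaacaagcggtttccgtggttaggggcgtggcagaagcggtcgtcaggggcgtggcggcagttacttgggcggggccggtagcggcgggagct

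The half-site occurred once, in the STK39 window on the strand of the gene, at positions -112 to -107 before the start. Of 35114 windows of the same length over all genes, 12.4% held it. The full element, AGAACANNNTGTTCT, which contains that half-site, was in none of the 4 windows and in 0.00285% of all windows. The forkhead motif TGTTTAC (2.98% of all windows) and the TATA box TATAAA (10.7%) were in none of them either. The GC box GGGCGG, present in 42.6% of all windows, occurred 3 times before STK39, once before GPR158, once before the second start of ABHD2, and not before the first. Windows differed in base composition, with 76.4% G and C before STK39, 68.8% before GPR158, and 51.2% and 60.8% before the 2 starts of ABHD2, against a median of 58% over all windows. These matches describe the letters of these windows alone.

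Array quality and cell identity were checked once for the whole series. Replicate arrays correlated with r from 0.9858 to 0.9922 across transcript clusters, and array medians lay between 22.19 and 22.43. Of 12 luminal prostate markers the annotation named 7, and all 7, among them FOLH1, HOXB13 and EPCAM, lay above the 75th percentile of all values. Of the basal, fibroblast, leukocyte and neuroendocrine markers named, 0 did. The summed intensity of the fibroblast markers was 60.9 to 65.2 in charcoal arrays and 60.6 to 67.4 in full-serum arrays, and that of the leukocyte markers 39.7 to 41.3 and 38.9 to 41, sums that sit near the floor of the array. The luminal sum, which holds the androgen-induced KLK2 and KLK3, was 2280 to 2630 and 2860 to 3530.

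GPR158 (transcript cluster 16703311) had log2 levels of 5.85 and 6.02 in the charcoal vehicle arrays and 6.77 and 7.07 in the full-serum vehicle arrays. With cabazitaxel it stood at 5.86 and 6.16 in charcoal serum and at 6.79 and 6.85 in full serum. With docetaxel it stood at 6.10 and 6.36 in charcoal serum and at 6.81 and 6.90 in full serum. Every full-serum array was above every charcoal array, and the charcoal docetaxel arrays came closest to the gap. From lowest to highest, group means ran from charcoal vehicle (5.93 ± 0.12, SD, n = 2 arrays) through charcoal cabazitaxel (6.01 ± 0.21) and charcoal docetaxel (6.23 ± 0.18) to full cabazitaxel (6.82 ± 0.043), full docetaxel (6.86 ± 0.064) and full vehicle (6.92 ± 0.21). Only the step from charcoal docetaxel to full cabazitaxel, of 0.59, separated neighbouring groups whose arrays did not overlap. In bulk RNA, more cells with a transcript and more transcript per cell cannot be told apart.

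STK39 (16904741) had log2 levels of 8.46 and 8.46 in the charcoal vehicle arrays and 9.25 and 9.39 in the full-serum vehicle arrays. With cabazitaxel it stood at 8.34 and 8.34 in charcoal serum and at 9.25 and 9.43 in full serum. With docetaxel it stood at 8.58 and 8.53 in charcoal serum and at 9.42 and 9.42 in full serum. The sera were again apart in every array, by more than any distance within a serum. Within charcoal serum the arrays also kept apart by treatment, with cabazitaxel (8.34 ± 0.0020, SD, n = 2 arrays) below vehicle (8.46 ± 0.0021) and docetaxel (8.55 ± 0.033) above it. The pairs at 8.34 and 8.46 were much closer together than the vehicle and cabazitaxel pairs of this gene in full serum (SD 0.099 and 0.13). The docetaxel pair in full serum was as close as they were (SD 0.0016). In full serum the order was vehicle (9.32 ± 0.099), cabazitaxel (9.34 ± 0.13) and docetaxel (9.42 ± 0.0016), and these neighbours overlapped.

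ABHD2 (16804539) had log2 levels of 7.83 and 7.78 in the charcoal vehicle arrays and 8.43 and 8.77 in the full-serum vehicle arrays. With cabazitaxel it stood at 7.93 and 7.61 in charcoal serum and at 8.40 and 8.63 in full serum. With docetaxel it stood at 7.78 and 7.83 in charcoal serum and at 8.44 and 8.67 in full serum. All charcoal arrays lay below all full-serum arrays, and within each serum the 3 treatments overlapped. The group means were 7.77 ± 0.22 for cabazitaxel, 7.80 ± 0.032 for docetaxel and 7.81 ± 0.029 for vehicle in charcoal serum (SD, n = 2 arrays each). In full serum they were 8.52 ± 0.16 for cabazitaxel, 8.55 ± 0.16 for docetaxel and 8.60 ± 0.24 for vehicle.

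**Figure D1:**
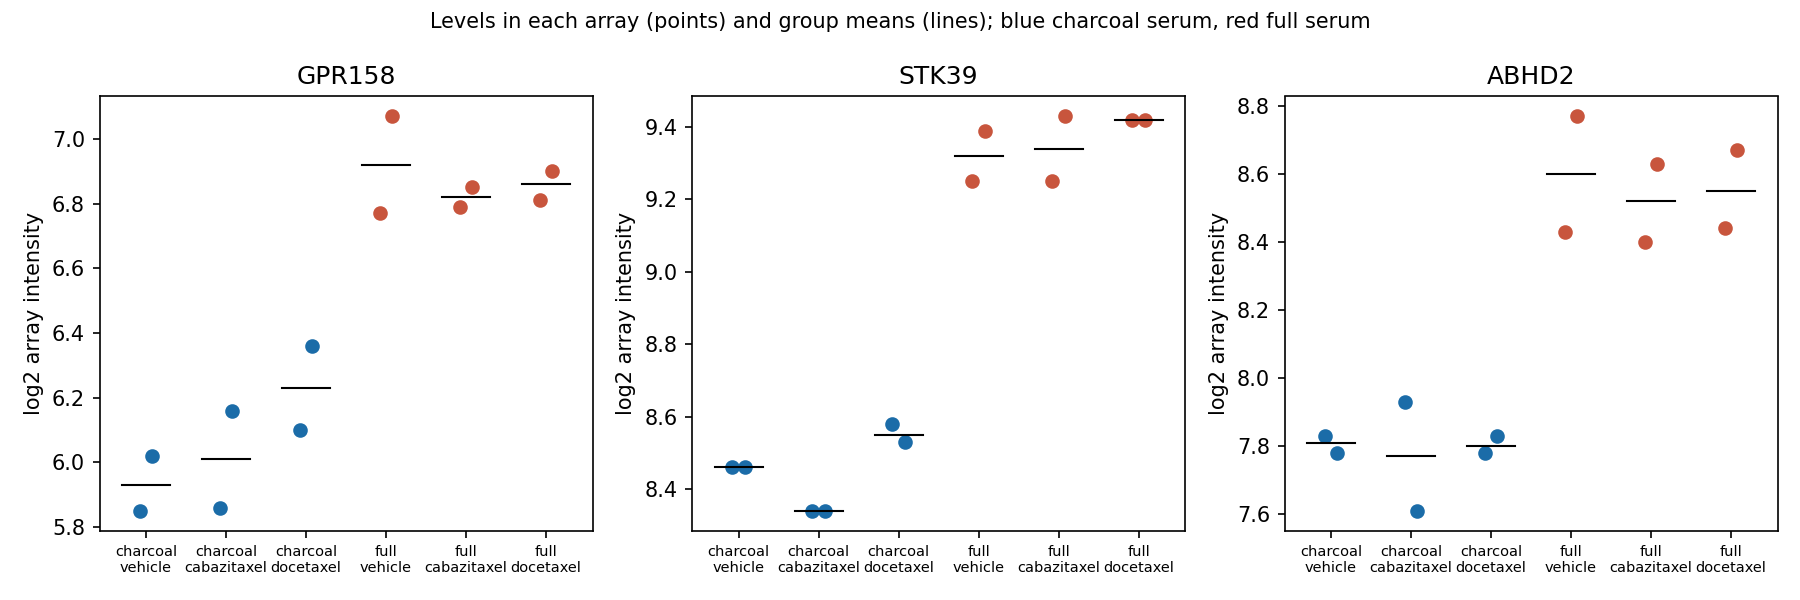
Log2 array intensity (vertical axis) of GPR158, STK39 and ABHD2 in each of the 12 arrays, by group of serum and treatment, with points for arrays and lines for group means. In each panel the 6 full-serum arrays lie above the 6 charcoal arrays, and the vertical axes differ between genes.

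The vehicle arrays show the rise for which the genes were picked, so their differences are a description with no test. Full serum minus charcoal serum under vehicle was 0.99 for GPR158, 0.86 for STK39 and 0.80 for ABHD2, which is 1.99-fold, 1.81-fold and 1.74-fold. With its clusters averaged, GPR158 stood at 0.56. By size of the rise these 3 held places 4, 7 and 10 among the tested genes, which reflects the choice. As background, 0.225% of the tested genes were called higher in that comparison. The 6 full-serum arrays of all treatments lay above the 6 charcoal arrays for 1.23% of the tested genes, the 3 included, a count that holds the arrays of the choice. The next genes called higher there were C1orf116 (0.80) and ZBTB10 (0.76).

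The arrays with cabazitaxel or docetaxel do not enter that vehicle difference, and in them the serum difference was tested. Since results of all arrays were known when the genes were chosen, these tests are not fully independent of the choice. Over both taxanes, with 4 full-serum against 4 charcoal arrays, all 3 genes rose. STK39, the SPAK kinase gene, rose 1.91-fold, by a log2 of 0.94 (SE 0.057, 95% confidence interval 0.81 to 1.06, limma adjusted p = 1.03e-05). ABHD2, the hydrolase gene, rose 1.68-fold, by 0.75 (SE 0.096, 95% confidence interval 0.54 to 0.96, limma adjusted p = 0.00274). GPR158, the receptor gene, rose 1.65-fold, by 0.72 (SE 0.092, 95% confidence interval 0.52 to 0.92, limma adjusted p = 0.00265). Limma called 0.585% of the tested genes higher in this comparison (65 of 11105), and the 3 genes took places 5, 12 and 13 by size of the rise. The 4 full-serum arrays lay above the 4 charcoal arrays for all 3 genes, as they did for 3.38% of the tested genes. Each of the 3 was still called when any 1 of the 8 arrays was left out, with log2 changes of 0.89 to 0.98 for STK39, 0.67 to 0.83 for ABHD2 and 0.65 to 0.80 for GPR158.

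Each taxane alone gave 2 against 2 arrays. Under cabazitaxel, limma called all 3 genes higher, against 0.261% of the tested genes. STK39 rose by 1.00 (SE 0.080, adjusted p = 0.000191), GPR158 by 0.82 (SE 0.13, adjusted p = 0.0258) and ABHD2 by 0.75 (SE 0.14, adjusted p = 0.0475). The calls of GPR158 and ABHD2 were not kept on all scales or array sets. GPR158 had an adjusted p of 0.157, 0.174 and 0.245 without charcoal cabazitaxel replicate 1, full cabazitaxel replicate 1 and full cabazitaxel replicate 2, and ABHD2 had 0.0569 and 0.289 without charcoal cabazitaxel replicates 1 and 2, and 0.159 and 0.469 without full cabazitaxel replicates 1 and 2. With an assumed background of 16 intensity units subtracted, GPR158 stood at 1.02 (adjusted p = 0.123) and ABHD2 at 0.79 (adjusted p = 0.23).

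Under docetaxel, limma called STK39 higher, by 0.87 (SE 0.080, adjusted p = 0.000881), against 0.162% of the tested genes called higher. ABHD2 had a log2 difference of 0.75 (SE 0.14, adjusted p = 0.054) and GPR158 one of 0.63 (SE 0.13, adjusted p = 0.102), and neither passed. ABHD2 passed with a stricter filter on low values (adjusted p = 0.0278) and with a trended variance prior (adjusted p = 0.0265), and GPR158 passed when its clusters were averaged (0.49, adjusted p = 0.045). STK39 was called under each taxane without any 1 of the 4 arrays, with 0.91 to 1.10 under cabazitaxel and 0.84 to 0.89 under docetaxel.

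**Figure D2:**
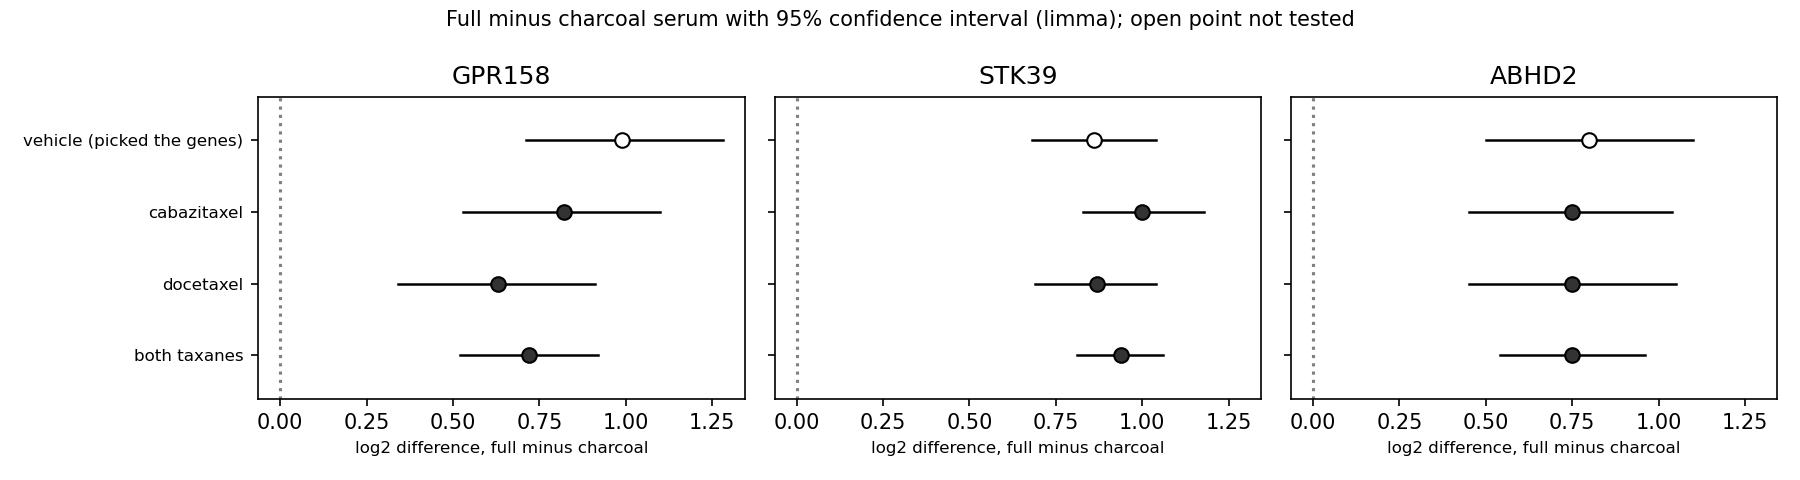
Log2 difference, full minus charcoal serum (horizontal axis), for each gene under vehicle, cabazitaxel, docetaxel and both taxanes, with lines for 95% confidence intervals of limma. Open points mark the vehicle comparison on which the genes were picked, which was not tested, and the differences run from 0.63 for GPR158 under docetaxel to 1.00 for STK39 under cabazitaxel.

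Whether the serum difference depended on the taxane was tested directly. The difference under cabazitaxel minus that under docetaxel was 0.19 for GPR158 (95% confidence interval -0.21 to 0.60), 0.14 for STK39 (95% confidence interval -0.11 to 0.39) and 0.00 for ABHD2 (95% confidence interval -0.42 to 0.42). Limma gave each an adjusted p of 1, and called 0 genes in all (0%), with 402 at an unadjusted p under 0.05. The intervals leave room for a difference of either sign.

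Cabazitaxel and docetaxel stabilise microtubules and differ in structure by methoxy groups on cabazitaxel where docetaxel has hydroxyl groups. Both were given at the same dose and for the same time, and were set against the same vehicle arrays, so their differences from vehicle are not independent. As the mean of both sera, cabazitaxel minus vehicle was -0.01 for GPR158 (95% confidence interval -0.21 to 0.19), -0.05 for STK39 (-0.17 to 0.07) and -0.06 for ABHD2 (-0.27 to 0.15). Docetaxel minus vehicle was 0.12 for GPR158 (95% confidence interval -0.08 to 0.32), 0.10 for STK39 (-0.03 to 0.22) and -0.03 for ABHD2 (-0.24 to 0.18). None passed (limma adjusted p from 0.826 to 1), and limma called 0% of the tested genes with either drug, with 520 and 672 at an unadjusted p under 0.05. Within charcoal serum, docetaxel minus vehicle was 0.30 for GPR158 and 0.09 for STK39, and within full serum -0.06 and 0.10, a description only, since the genes were picked on those vehicle arrays. The signs for ABHD2 with both drugs, and for GPR158 with cabazitaxel, turned with single arrays left out.

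The taxanes were also set against each other without the vehicle arrays. Cabazitaxel minus docetaxel, as the mean of both sera, was -0.15 for STK39 (95% confidence interval -0.27 to -0.02, unadjusted p = 0.0254, limma adjusted p = 0.958). It was -0.13 for GPR158 (95% confidence interval -0.33 to 0.07, adjusted p = 0.958) and -0.03 for ABHD2 (95% confidence interval -0.25 to 0.18, adjusted p = 0.979). None passed, and limma called 0 genes (0%), with 506 at an unadjusted p under 0.05. For STK39 the difference was -0.22 in charcoal serum, where no cabazitaxel array reached a docetaxel array, and -0.08 in full serum, where they overlapped. For GPR158 it was -0.23 in charcoal serum and -0.04 in full serum, and for ABHD2 -0.03 in each.

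**Figure D3:**
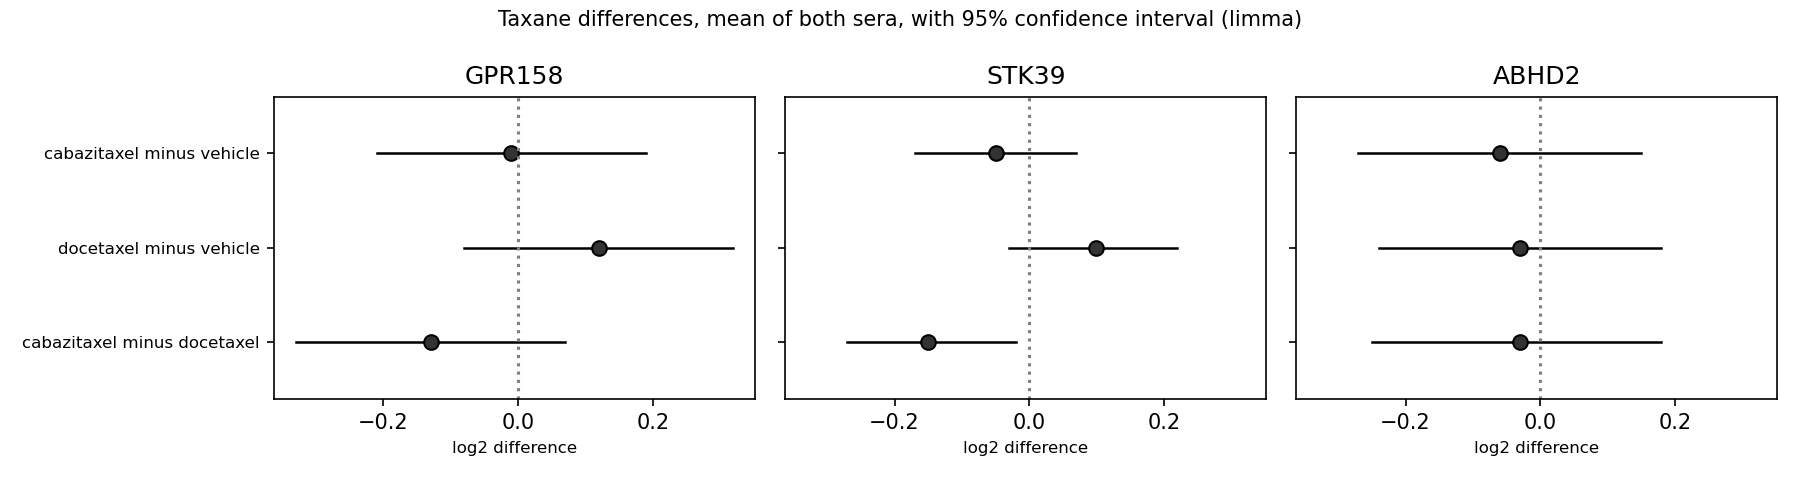
Log2 differences (horizontal axis) of cabazitaxel minus vehicle, docetaxel minus vehicle and cabazitaxel minus docetaxel as the mean of both sera, with 95% confidence intervals of limma. The points lie between -0.15 and 0.12, and all intervals cross 0 but that of STK39 between the taxanes, which did not pass after adjustment.

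The second cluster annotated to GPR158 (16712598) had intensities from 33.9 to 49.1, against 57.5 to 134 for the kept cluster. Its full minus charcoal difference was 0.14 under vehicle and 0.27 over both taxanes, smaller than the 0.99 and 0.72 of the kept cluster. The clusters thus point the same way and disagree in size. STK39 and ABHD2 each had a single cluster.

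Genes related to the 3 by function or sequence were then read in the taxane arrays, over both drugs. Over all tested genes, limma called 1.07% in either direction in this comparison, and 10.2% had an unadjusted p under 0.05. Of the WNK-SPAK pathway list, which holds kinases, scaffolds, cotransporters and ubiquitin ligase genes, 8 of 20 genes were tested, and limma called 0 of them, with 1 at an unadjusted p under 0.05. WNK1, the best known upstream kinase, had a log2 difference of 0.00 (95% confidence interval -0.19 to 0.20). OXSR1, which encodes the closest relative of SPAK and shares its substrates, had -0.06 (95% confidence interval -0.25 to 0.13). The interval of STK39 begins at 0.81, but STK39 was picked for its rise and OXSR1 was not. The gap between them thus follows in part from the choice. The scaffold genes CAB39 and CAB39L stood at -0.17 and 0.13, and CUL3, a ubiquitin ligase gene acting on WNK kinases, at -0.18. Their median was -0.0473, against 0.00288 over all tested genes. The 8 tested genes held no cotransporter gene, and those were not analysed here.

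Among the other Ste20-type kinase genes, 18 of 23 were tested and limma called 1 higher, with 2 at an unadjusted p under 0.05 (1.07% and 10.2% over all tested genes). This was TAOK3, whose levels ran from 6.88 to 6.97 in the charcoal taxane arrays and from 7.38 to 7.61 in the full-serum ones. Its rise was 0.52 (SE 0.062, adjusted p = 0.00162), smaller than that of STK39, with 0.57 under cabazitaxel (adjusted p = 0.0207), 0.47 under docetaxel (adjusted p = 0.0586) and 0.44 under vehicle (adjusted p = 0.0666). Other members with high signal were SLK (-0.14), PAK2 (-0.26), TAOK1 (-0.03) and MAP4K4 (-0.14), and none of them passed. The median of the 18 was -0.0351.

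Of the relatives of ABHD2 with the same fold, 15 of 24 were tested, and limma called 0, with 0 at an unadjusted p under 0.05 (1.07% and 10.2% over all tested genes). ABHD4, ABHD10, ABHD5, ABHD3 and ABHD12 had log2 differences of -0.12, -0.10, 0.04, 0.06 and -0.08, and the median of the 15 was 0.00109. A list of monoacylglycerol and endocannabinoid genes, which also held progesterone receptor genes and sperm calcium channel genes, had 7 of 16 genes tested. Limma called 0 of them, and 4 had an unadjusted p under 0.05, a larger share than the 10.2% over all tested genes. MGLL, the main monoacylglycerol lipase gene, stood at 0.00, but its mean log2 level of 4.71 lay near the floor of the array, which compresses changes. The amidase genes NAAA and FAAH each stood at 0.19, the triglyceride lipase gene PNPLA2 at 0.15, NAPEPLD, which serves anandamide synthesis, at -0.39 (adjusted p = 0.0647), and PGRMC2, a progesterone receptor membrane component gene, at -0.23.

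For GPR158, 2 of 21 other class C receptor genes were tested, its paralog GPR179 at -0.01 (95% confidence interval -0.13 to 0.12) and the calcium sensor gene CASR at 0.00, and limma called 0, with 0 at an unadjusted p under 0.05. Of its reported partners 7 of 17 were tested and limma called 0, with 2 at an unadjusted p under 0.05 (1.07% and 10.2% over all tested genes). The glypican genes GPC4 (-0.12), GPC6 (0.13) and GPC1 (-0.04), and RGS9 (0.07) and RGS9BP (0.07), had the highest signals among them. All of these but GPC4 had mean log2 levels from 4.68 to 4.84, near the floor of the array, which compresses changes. GPR179 and CASR stood lower still, at 4.54 and 4.52. Of the main partner genes, RGS7 lacked the signal needed for a test, and GNB5 had no cluster named with 1 symbol. Neither was tested. Over the 6 lists of relatives, limma called 1 of 57 tested genes (1.75%), TAOK3, a share near the 1.07% over all tested genes.

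Androgen-induced genes were read beside the 3, from a list taken from a widely used collection that also holds STK39 and ABHD2, which were left out. Of 94 listed genes 51 were tested, and 46 of them were higher in full serum over both taxanes, with a median of 0.178 against 0.00288 over all tested genes. Of all tested genes, 51.4% were higher in this comparison. Limma called 14 of the list higher and 0 lower, against 0.585% of all tested genes called higher and 1.07% in either direction. The largest were TARP (1.99), KLK2 (1.40), HERC3 (1.04), CENPN (0.98), ZBTB10 (0.91) and KLK3 (0.89), so that STK39, ABHD2 and GPR158 lie within the range of the called members. Of the 5 with the highest signal, KLK3 and PLPP1 (0.41, adjusted p = 0.0153) were called, and XRCC5 (0.02), SCD (0.06) and GSR (0.20) did not pass. FKBP5, a cochaperone gene of steroid receptors, rose by 0.54 (adjusted p = 0.00457), and SPDEF, an Ets factor gene of prostate epithelium, by 0.59 (adjusted p = 0.0173). The count over all genes in this comparison, 119, moved with single arrays, from 62 without charcoal docetaxel replicate 2 to 120 without charcoal cabazitaxel replicate 1, with 64 and 73 without full docetaxel replicates 2 and 1, and 69 and 71 without full cabazitaxel replicates 1 and 2.

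**Figure D4:**
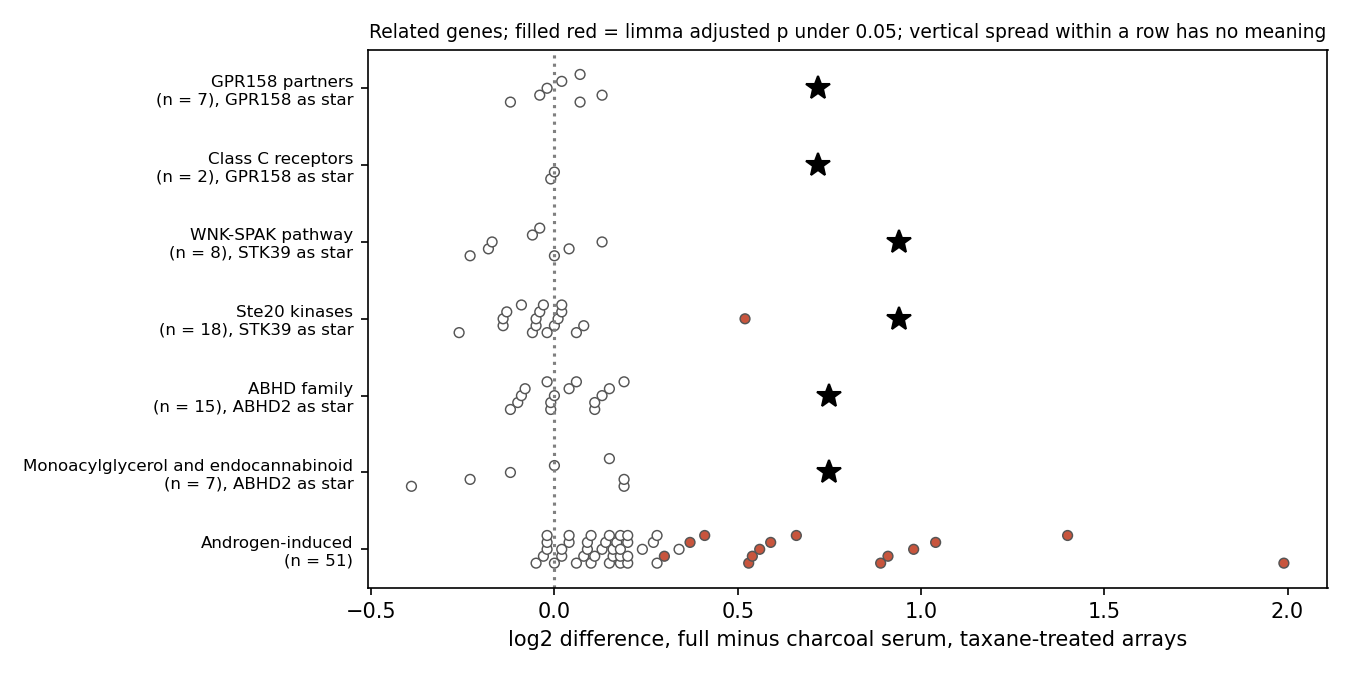
Log2 difference, full minus charcoal serum over the taxane-treated arrays (horizontal axis), for the tested genes of 7 lists, with filled points for genes called by limma and stars for STK39, GPR158 or ABHD2. TAOK3 at 0.52 is the single filled point among the relatives, and 14 of 51 androgen-induced genes are filled.

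The genes whose levels most resembled each of the 3 were found by Pearson's r of log2 levels over the 12 arrays. Because these arrays fall into 2 sera, r mainly reflects the serum gap. The r of deviations from group means is given beside it, also as a description. With 2 arrays per group, that r rests on 1 replicate difference in each of the 6 groups. A shift between replicate numbers is not removed from it, and GPR158 was higher in replicate 2 in 6 of 6 groups. Nearest to STK39 were HERC3 (r = 0.993, within groups 0.601), a HECT ubiquitin ligase gene, ZBTB10 (0.990, within groups 0.365), RASSF3 (0.987, within groups 0.525), the centromere gene CENPN (0.983, within groups 0.534) and UAP1 (0.981, within groups 0.694), which serves the synthesis of UDP-N-acetylglucosamine. All of these but RASSF3 are on the androgen-induced list. KLK2, KLK3, ELOVL5 and HERC3, named below for ABHD2, are on it too. Of the genes named below for GPR158, ZBTB10 is on it, and MALT1, GRHL2 and LIMCH1 are not. The ranking holds the vehicle arrays on which STK39 was picked, so other genes with a large serum rise were favoured.

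Nearest to ABHD2 were KLK2 (r = 0.984, within groups 0.820) and KLK3 (0.971, within groups 0.728), the prostate kallikreins, the fatty acid elongase gene ELOVL5 (0.976, within groups 0.684), HERC3 (0.966, within groups 0.856) and STK39 (0.961, within groups 0.658). Nearest to GPR158 were MALT1 (r = 0.972, within groups 0.826), a paracaspase gene, GRHL2 (0.967, within groups 0.575), an epithelial transcription factor gene, LIMCH1 (0.955, within groups 0.845), ZBTB10 (0.952, within groups 0.663) and STK39 (0.952, within groups 0.314). The rises of MALT1, GRHL2 and LIMCH1 over both taxanes were 0.89 (adjusted p = 0.00035), 0.37 (adjusted p = 0.00471) and 0.36, the last not passing (adjusted p = 0.0511). Among the 3 genes themselves, r was 0.961 between STK39 and ABHD2, 0.952 between STK39 and GPR158 and 0.916 between GPR158 and ABHD2, and within groups 0.658, 0.314 and 0.150.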

How the data were processed

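Total RNA was extracted with Trizol, amplified with the Ovation Pico WTA system and read on Affymetrix Human Gene 2.0 ST arrays, per the labels' protocols and the series' design text. Per the submitters' processing notes, RMA was used, and the authors deposited its intensities on a linear scale. The version, the threshold of their filter on low-expressing genes and the build are not given in the sources used here. Values ran from 17.32 to 6307.3, 57.5% of them below 24, a floor that compresses changes of weak genes. Precision is limited by the number of arrays.

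The log2 of each of 44629 clusters was taken. The annotation named 15835 with 1 symbol each, and the cluster of the highest mean was kept per gene. Genes needed 2 arrays above the median of 22.31. Limma 3.58.1 (R 4.3.3) was fitted to all 12 arrays, 1 mean per group, with 6 residual and 5.08 prior degrees of freedom. P-values are two-sided, adjusted by Benjamini-Hochberg over all 11105 genes within each of 7 tested comparisons, and called under 0.05. The fit was tested on simulated data. The members and lists were chosen with earlier results of these data known. Genes named beside the members were the 5 nearest by Pearson's r for each, and from each list those called and the 5 of highest mean, with up to 6 called genes per list. Beyond these, FKBP5, SPDEF, MGLL and C1orf116 were named after their values were seen. Promoter windows came from RefSeq, with 2 windows left out for length or unknown bases.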

Additional observations from a re-analysis of the deposited data

How the results depend on the processing

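In the taxane arrays together, the rise of each gene kept its direction and its call under every alternative run but the t-test of the series' methods, where GPR158 (0.72) had an adjusted p of 0.082 and ABHD2 (0.75) one of 0.0547. Under cabazitaxel, that test ended the calls of GPR158 (0.82), STK39 (1.00) and ABHD2 (0.75), and under docetaxel that of STK39 (0.87). Fitting only the arrays compared, or using no filter on low values, ended those of GPR158 (0.82) and ABHD2 (0.75) under cabazitaxel, as did subtracting 16 (1.02 and 0.79), and quantile normalisation that of ABHD2 (0.74). Apart from those with the replicate block, given below, calls gained under docetaxel were GPR158 with clusters averaged (0.49) and ABHD2 (0.75) with the stricter filter or trended prior.

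Gene counts also moved. Under cabazitaxel, 44 genes became 10 with 16 subtracted, 25 without a filter, 7 with only the arrays compared and 2 by the t-test. Under docetaxel, 35 became 9, 22, 12 and 0. Over both taxanes, 119 became 62 with 16 subtracted and 38 by the t-test. The cause was not tested. The vehicle difference of GPR158 was 1.23 with 16 subtracted and 0.56 with clusters averaged. For ABHD2 the sign turned at values of 0.00, in the serum difference between taxanes with 16 subtracted and in cabazitaxel minus docetaxel after quantile normalisation.

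With the replicate number as a block, 62 genes were called under docetaxel and 190 over both taxanes, and GPR158 (0.63, adjusted p = 0.0065) and ABHD2 (0.75, adjusted p = 0.0333) were called under docetaxel. Same-numbered arrays shared only a number by the rule used, with correlations of deviations above 0.1 in 10 of 15 pairs of groups (-0.0486 to 0.326). On average over the other groups, each array correlated best with its own number, a hint from the data and not from the design, and GPR158 was higher in replicate 2 in 6 of 6 groups.

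With each replicate left out in turn, counts ran from 9 to 19 under cabazitaxel, 7 to 21 under docetaxel and 62 to 120 over both taxanes. Under cabazitaxel GPR158 ran from 0.67 to 0.97 and ABHD2 from 0.59 to 0.90. Under vehicle STK39 ran from 0.79 to 0.93 and ABHD2 from 0.63 to 0.97. For ABHD2, signs turned in the serum difference between taxanes (-0.16 to 0.16), with cabazitaxel (-0.15 to 0.02), with docetaxel (-0.11 to 0.06) and between taxanes (-0.11 to 0.04), and for GPR158 with cabazitaxel (-0.09 to 0.06). A group left with 1 array is assumed to vary like the others.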
